A study of Mus musculus with 2 samples.

Results

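The genes described here are 47 genes of ribosome production and cell growth that are widely listed as targets of the transcription factor MYC. They were chosen by name, and all 47 were among the 27933 gene symbols of both count tables. Most of them act in the nucleolus, where RNA polymerase I transcribes ribosomal DNA and where small nucleolar ribonucleoproteins (snoRNPs), cleavage factors and assembly factors turn the long precursor into ribosomal RNA and join it to ribosomal proteins. MYC with its partner MAX binds the E-box, a short DNA motif, and growing cells need many new ribosomes before they divide. In the thymus, growth and division follow the beta-selection of early CD4-CD8- (DN) cells, while CD4+CD8+ (DP) cells become small and resting before selection and maturation to single-positive (SP) cells.

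The study measured single-cell RNA in mouse thymocytes with the 10x Chromium 3′ v2 method. There was 1 library from thymus labelled wild type and 1 from thymus homozygous for mutations of GATA sites 1 and 2 (GS1+2) of NMe, a distant Myc enhancer to which NOTCH1 binds in precursors of T cells. For both libraries 5000 cells were loaded, and strain, sex, age and the number of animals are not given in the sources used here. With 1 library per genotype there is no replicate and no test, every comparison is between these libraries and not between the genotypes, and all 95% intervals cover counting error only. Where values come in pairs, wild type stands first unless the sentence names another order.

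The libraries held 1338 and 1726 kept cells, with medians of 3323.5 and 2595.5 unique molecular identifiers (UMIs) per cell. Only 1 cell barcode occurred in both. Cells were placed into stages and phases by the UMIs of marker genes, none of them a member: non-cycling DN cells (24 and 155 cells), S phase (175 and 108), S to G2 (132 and 68), G2/M (277 and 140), and non-cycling DP (231 and 387), post-selection (30 and 79) and SP cells (376 and 622). These are ranges of marker UMIs and not sorted populations, and 35 and 42 cells lay between the limits for non-cycling and for cycling cells. Non-cycling cells were called DN first, then SP, post-selection and DP, so DN cells could carry DP or SP markers at any level. Cells rich in markers of innate T and NK, B, myeloid, plasma or erythroid cells were set apart (23 and 81). Cycling cells with SP markers at 75 per 10000 UMIs or more were also set apart (14 and 21). Another 56 and 65 kept cells met the limits of no class. In the classes used, the myeloid list of 8 markers summed to 102 to 277 UMIs per 1000000 UMIs (CPM), with only Itgax at 0 throughout, and the B cell and antigen presentation list of 7 to 14.6 to 95.7 CPM. The innate T and NK list was at 145 and 172 CPM in DN and 220 and 250 in SP cells. The plasma cell list was at 222 and 215 CPM in DN and 113 and 229 in DP cells. The erythroid list stood at 33.4 CPM or less. Levels of Myc itself were 45.3 and 23.3 CPM over all cells, 145 and 16.4 in DN cells (13 and 8 UMIs), 61.1 and 21.8 in S phase (78 and 14 UMIs) and 29.5 and 34.4 in SP cells.

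The core promoters of the members carried the canonical E-box, CACGTG, more often than promoters at large, and its sites are shown here because they are the sequence that MYC and MAX read. A promoter is the 300 bases from 250 before to 50 after a RefSeq gene start of the build GRCm38.p6, and because CACGTG is its own reverse complement both strands were covered. Of the 42 members with an entry, 13 held the motif (31.0%), against 12 of 79 other ribosome biogenesis genes (15.2%), 509 of 4121 genes at a mean of 20 CPM or more (12.4%) and 2187 of 27025 genes of the table (8.09%). The members were chosen as listed MYC targets, so their share is not independent of that choice. Npm1, Tcof1, Bop1, Rrp12 and Fbl had no entry. The median number of CpG per promoter was 21 in members and 24 in the genes at 20 CPM or more. Of the 13 sites, 6 lay before the start and 7 from the start on, and 11 lay within 100 bases of it. The sites of the 7 members that reached 20 CPM over all cells are given with 30 bases each, 5′ to 3′ on the strand of the gene, with the E-box in capitals.
Imp4, chr1:34439696-34439725, plus strand: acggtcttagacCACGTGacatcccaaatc
Hspd1, chr1:55088306-55088335, minus strand: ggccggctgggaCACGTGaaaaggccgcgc
Exosc5, chr7:25659097-25659126, plus strand: taaacgctgagcCACGTGctagggccaact
Prmt3, chr7:49778333-49778362, plus strand: gccccctacgccCACGTGacccggaagcgc
Pes1, chr11:3963965-3963994, plus strand: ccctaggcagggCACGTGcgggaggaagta
Phb, chr11:95666713-95666742, plus strand: ttgaggaataggCACGTGcatatattacca
Wdr43, chr17:71616220-71616249, plus strand: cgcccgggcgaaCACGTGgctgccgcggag
The motif of Imp4 lies 121 bases, that of Exosc5 44 and that of Phb 232 bases before the gene start. The motif of Hspd1 lies 80 bases before its start and inside Hspe1, its neighbour on the opposite strand, and the annotated starts of this chaperone pair are 111 bases apart. The motifs of Prmt3, Pes1 and Wdr43 overlap untranslated exon sequence of these genes in the GENCODE annotation. The other 6 sites belong to Nop2, Grwd1, Utp20, Mybbp1a, Nle1 and Ipo4. A match of these letters is a description and does not show binding. Over DN cells the medians of the log2 ratio of mutant over wild type were -0.76 and -0.68 in members with and without the motif (9 and 23 members at 20 CPM or more), in S phase they were 0.23 and 0.37 (10 and 23 members) and in G2/M -0.26 and 0.10 (6 and 21 members), and these differences were not tested.

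A further property, held by a minority of members, was not used to choose them, and it was not counted in the other ribosome biogenesis genes. In the GENCODE annotation 8 of the 47 members (17.0%) host small nucleolar RNA genes in their bodies, 23 in all, against 131 of 5082 protein-coding genes at 20 CPM or more (2.58%). Nop56 hosts 5, Nop58 4, Ncl, Gnl3 and Wdr43 3 each, Ppan and Tbrg4 2 each and Dkc1 1.

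Members differed widely in abundance. Levels of different genes are set side by side here because 3′ UMI counts do not grow with transcript length. Whether the genes were captured and assigned equally well was not tested. Npm1, the nucleolar phosphoprotein nucleophosmin (mm10, chr11:33152287-33163206, minus strand), had 9945 and 6786 UMIs, 31.9% and 27.0% of all member UMIs. Ncl, nucleolin (chr1:86344719-86359400, minus strand), followed with 4391 and 3474 UMIs. Next came Hspe1, the mitochondrial co-chaperonin, with 2677 and 2242 UMIs, Pa2g4, a growth-linked protein of large subunit precursors, with 1803 and 1407, and Hspd1, the chaperonin partner of Hspe1, with 1189 and 856. The core proteins of the C/D box snoRNPs had 1066 and 990 UMIs (Fbl), 860 and 785 (Nop56) and 775 and 705 (Nop58). The 8 most abundant members held 72.8% and 68.7% of member UMIs, so summed levels follow them closely. At the other end, 11 members had fewer than 100 UMIs in at least 1 library: Rrp12 (13 and 19), Polr1b (18 and 20), Ipo4 (37 and 36), Pprc1 (39 and 31), Utp20 (40 and 32), Slc19a1 (42 and 34), Supv3l1 (50 and 52), Cad (58 and 26), Grwd1 (76 and 79), Tfb2m (82 and 90) and Nop2 (97 and 86). Little can be said of these in any single class.

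Summed over the 47 genes, members were highest in S phase and lowest in resting DP or post-selection cells, in both libraries. The wild type levels were 6874 CPM in S phase, 5479 in S to G2, 5192 in DN, 4333 in G2/M, 3457 in SP, 2675 in DP and 2462 in post-selection cells. The mutant levels were 7234 CPM in S phase, 5837 in S to G2, 3883 in G2/M, 3405 in SP, 3189 in post-selection, 3032 in DN and 2541 in DP cells. Some neighbours in these orders had overlapping intervals. In wild type these were S to G2 (5332 to 5628) and DN cells (4732 to 5685), and DP (2538 to 2817) and post-selection cells (2105 to 2863). In mutant, post-selection cells (2917 to 3479.6) overlapped both SP (3325 to 3487) and DN cells (2879.6 to 3191). The place of DN cells thus differed between the libraries. The 91 other ribosome biogenesis genes were also highest in S phase, at 6502 and 7195 CPM, and stood at 4581 and 4189.6 in DN, 4478 and 4283 in DP and 4161 and 4261 in SP cells.

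**Figure D1:**
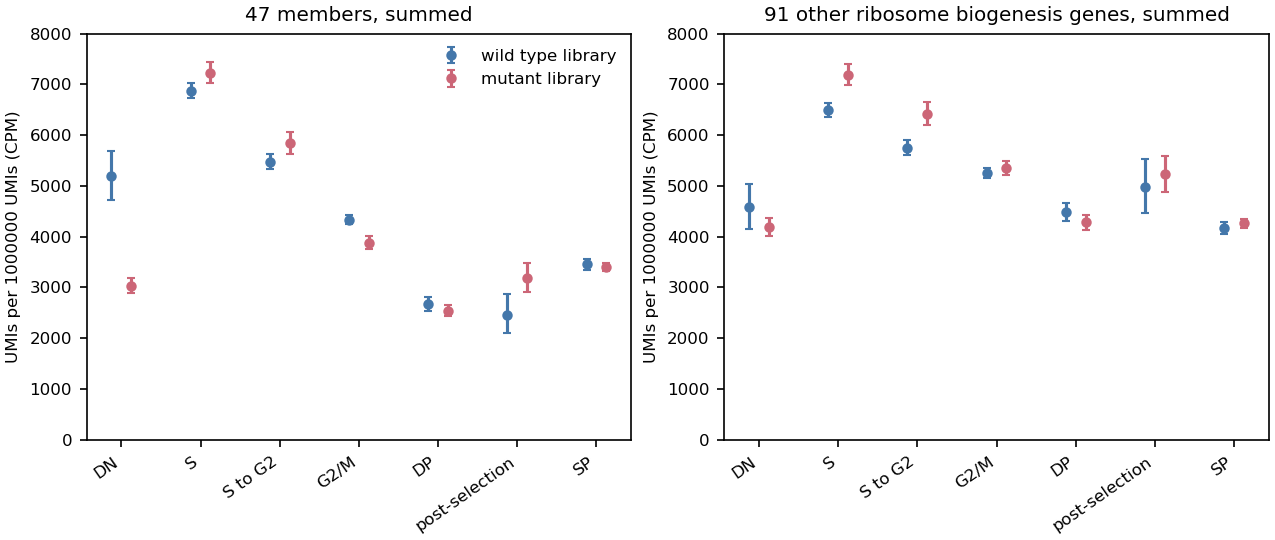
Summed level in UMIs per 1000000 UMIs (CPM) of the 47 members (left) and of 91 other ribosome biogenesis genes (right) in each class of cells, with exact Poisson 95% intervals that cover counting error only. Member levels of the libraries lie close together in SP and DP cells and apart in DN cells, at 5192 CPM in wild type against 3032 in mutant.

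Between S phase and resting DP cells, members were higher in S phase by a summed log2 ratio of 1.36 (1.28 to 1.44) in the wild type library and 1.51 (1.43 to 1.59) in the mutant library. A gene is counted as past the fold when its log2 ratio, computed after adding 5 CPM on either side, is at least 0.585 (1.5-fold) and its mean over the compared sides is at least 20 CPM, the level filter. In wild type 26 of the 34 members at that level were past the fold upward, beside 19.3% of all genes, and 0 downward, beside 37.3%. In mutant 29 of 34 were past it upward, beside 19.9%, and 0 downward, beside 33.0%. Of all 47 members 41 were higher in S phase in both libraries, whatever their level. The median over members at the level filter was 1.26 and 1.37, and that of all genes -0.29 and -0.20. Among the other ribosome biogenesis genes, 28 of 63 were past the fold upward and 5 downward in wild type, and 39 of 68 and 1 in mutant. S phase cells also held more UMIs per cell, with medians of 6011 and 5132.5 against 2079 and 1771, and with cells thinned to 1500 UMIs the summed ratios were 1.26 and 1.32.

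By role, the snoRNP proteins had the widest range. Their summed ratios were 2.20 (1.88 to 2.53) and 2.07 (1.83 to 2.32), against 1.48 (1.26 to 1.69) and 1.67 (1.49 to 1.85) for the large subunit factors and 0.83 (0.50 to 1.17) and 0.81 (0.50 to 1.12) for the small subunit factors. In wild type Nop58 was at 188 CPM in S phase and 20.6 in DP cells, a log2 ratio of 3.19 (2.32 to 4.21), and in mutant at 244 and 40.2, a ratio of 2.60 (2.04 to 3.21). Nop56 had 1.98 and 2.15, Fbl, the methyltransferase of these particles, 1.89 in both, and Dkc1, the pseudouridine synthase dyskerin, 2.67 and 2.21. All 5 members of this group were past the fold in wild type and 4 of 5 in mutant, where Rrp9 was not.

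Among the large subunit factors, Gnl3, nucleostemin, had only 3 UMIs in wild type DP cells (5.63 CPM) and 15 in mutant ones (19.4 CPM). It reached 149.6 and 138 CPM in S phase, log2 ratios of 4.73 (3.16 to 7.02) and 2.83 (2.03 to 3.73). Bop1, a partner of Pes1 in 28S rRNA maturation, had 0.89 (-0.17 to 2.12) and 2.49 (1.43 to 3.71). The chaperonin subunit Hspd1 had 2.21 (1.72 to 2.73) and 2.45 (1.97 to 2.95). The abundant members Npm1 (1.30 and 1.39), Hspe1 (1.27 and 1.56) and Pa2g4 (1.71 and 2.05) lay nearer the median. Tmem97, a sterol-linked membrane protein, had 3.29 (1.36 to 6.38) in wild type, from 47 and 2 UMIs in S phase and DP cells.

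A few members had lower ratios of S phase over DP cells in at least 1 library. Tcof1, the treacle protein that helps RNA polymerase I, was at 96.3 CPM in S phase and 92.0 in DP cells of wild type, and at 117 and 105 of mutant, log2 ratios of 0.07 (-0.42 to 0.58) and 0.15 (-0.32 to 0.62). Rcl1, a cleavage factor of the small subunit pathway, had 0.21 and 0.35, and Pes1 0.21 and 0.47, all with intervals that include 0. Mybbp1a, a nucleolar MYB-binding protein, had 0.03 (-1.02 to 1.19) and 1.45 (0.37 to 2.62). Exosc5, an RNA exosome subunit, had 1.06 (0.34 to 1.86) and 0.32 (-0.28 to 0.93). Imp4, a U3 snoRNP protein, had 0.50 and 0.70.

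**Figure D2:**
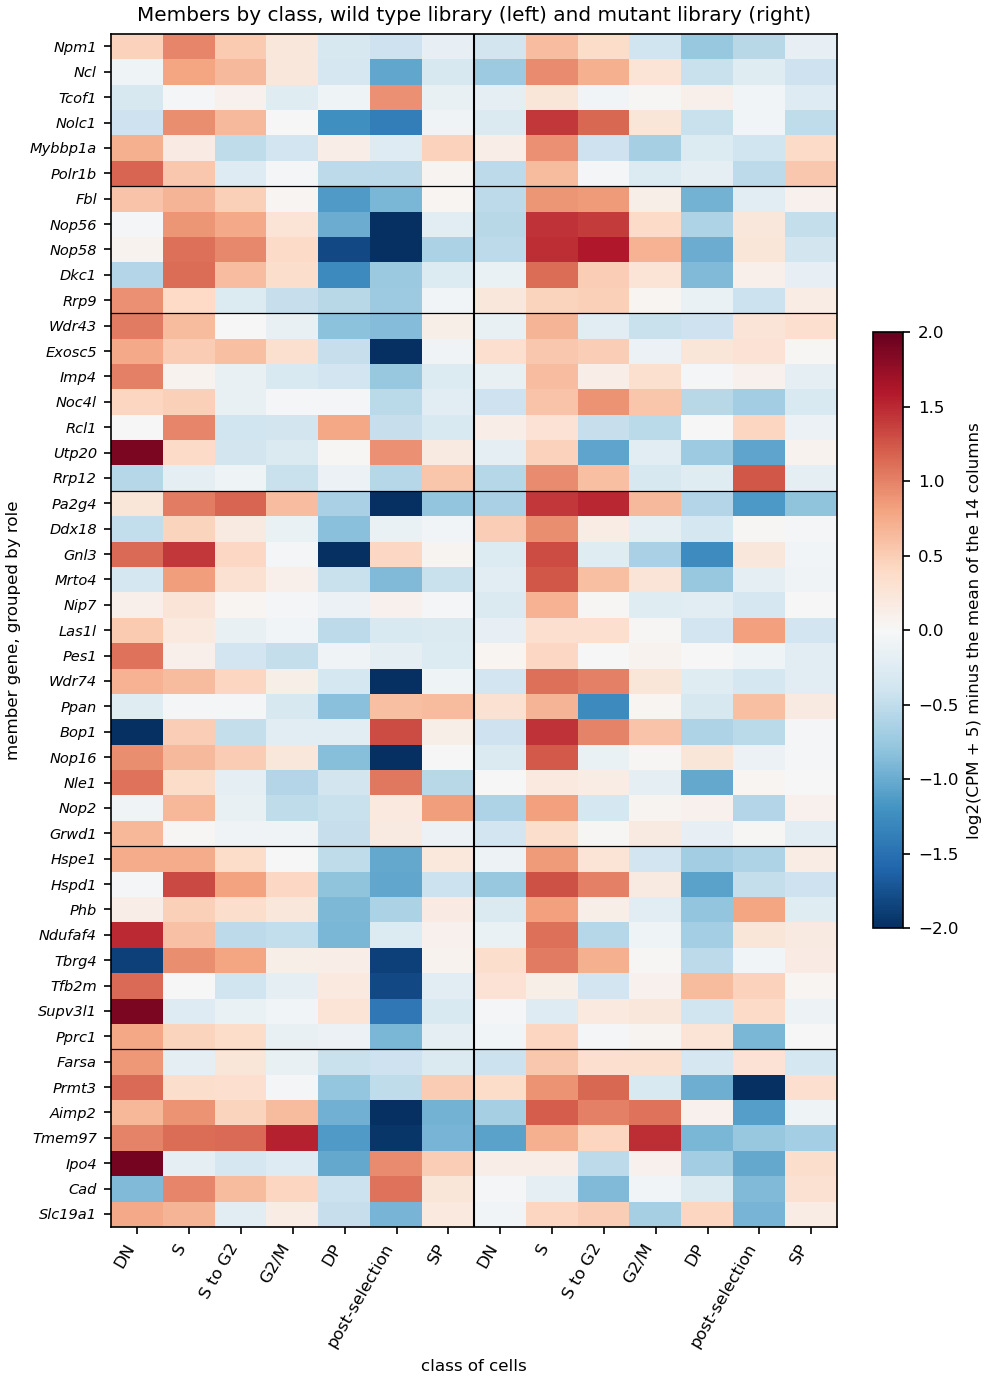
Each member (one line per gene, grouped by role) in 7 classes of the wild type library (left) and of the mutant library (right), as log2(CPM + 5) minus the mean of its 14 values, with colours limited to between -2 and 2. In mutant 33 members are highest in S phase and 0 in DN cells, and in wild type 17 are highest in S phase and 22 in DN cells, where 42 of the 47 rest on 11 UMIs or fewer.

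From S phase to G2/M the members were a smaller share of the RNA. The summed log2 ratio of G2/M over S phase was -0.67 (-0.71 to -0.62) in the wild type library and -0.90 (-0.96 to -0.84) in the mutant one. In wild type 16 of 34 members were past the fold downward, beside 6.18% of genes, and 0 upward, beside 14.3%. In mutant 26 of 35 were past it downward, beside 9.81%, and 1 upward, beside 16.9%. Of all 47 members 43 were lower in G2/M in both libraries, and the median log2 ratio of all genes at the level filter was 0.11 and 0.08. Gnl3 had the lowest ratio among the large subunit factors at the level filter, at 52.4 CPM in G2/M against 149.6 in S phase of wild type and 32.1 against 138 of mutant, log2 ratios of -1.51 (-1.87 to -1.16) and -2.11 (-2.73 to -1.52). Rcl1 had -1.58 and -1.04, Ndufaf4, an assembly factor of respiratory complex I, -1.23 and -1.30, and Nolc1, a nucleolar chaperone of snoRNPs, -0.99 and -1.24. In mutant the ratios of Hspe1 (-1.25) and Nop16, a large subunit factor (-1.39), were also among the lowest at the level filter, as was that of Mybbp1a, which had 10 UMIs in G2/M and 25 in S phase. Npm1 was at 2297 CPM in S phase and 1376 in G2/M of wild type, and at 1802 and 883 of mutant, ratios of -0.74 (-0.82 to -0.66) and -1.03 (-1.16 to -0.90).

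Tmem97 was the member past the fold upward in mutant, at 48.6 CPM in G2/M and 26.4 in S phase, a log2 ratio of 0.88 (0.06 to 1.77). In wild type it was at 50.9 and 36.8 CPM, a ratio of 0.47 (-0.05 to 1.00). Farsa, a subunit of phenylalanyl-tRNA synthetase, had 0.03 and -0.23, Tcof1 -0.23 in both, Exosc5 -0.20 and -0.71, Noc4l, a small subunit factor, -0.59 and -0.01, and Aimp2, a scaffold of the tRNA synthetase complex, -0.30 and -0.14. Tmem97, Farsa and Aimp2 belong to the growth genes outside the ribosome pathway, whose summed ratios were -0.11 (-0.36 to 0.15) and -0.21 (-0.54 to 0.13). Cytoplasmic ribosomal protein genes were a smaller share of the RNA in G2/M as well, at 257704 against 334977 CPM in wild type and 192570 against 258891 in mutant.

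In non-cycling SP cells members were a little higher than in DP cells. SP over DP cells gave summed log2 ratios of 0.37 (0.28 to 0.46) and 0.42 (0.35 to 0.50). Past the fold upward were 13 of 30 members in wild type, beside 10.1% of genes, and downward 1 (Rcl1), beside 31.7%. In mutant 10 of 28 were past it upward, beside 9.34%, and 0 downward, beside 36.8%. Ranked at the level filter with 5 CPM added, and given without it, the highest ratios were in wild type those of Gnl3 (3.31, 1.70 to 5.62), Ppan (1.77), Prmt3 (1.62) and Nop58 (1.36) and in mutant those of Gnl3 (1.39), Fbl (1.07), Ndufaf4 (1.01) and Hspe1 (0.86). The lowest were in wild type those of Rcl1 (-1.29), Pes1 (-0.24), Noc4l (-0.21) and Pa2g4 (-0.15) and in mutant those of Tcof1 (-0.37), Nop16 (-0.34), Exosc5 (-0.23) and Pes1 (-0.25). Fbl had 1.22 and 1.07, Dkc1 1.17 and 0.82, and Wdr43, a factor of the early pre-rRNA complex, 1.06 and 0.82. Ncl stayed near 0, with 0.02 and 0.03, and Pa2g4 had -0.15 and -0.22.

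Post-selection over DP cells gave a summed ratio of -0.12 (-0.36 to 0.11) from 169 member UMIs in wild type and 0.33 (0.18 to 0.47) from 506 in mutant. There 7 of 24 wild type members were past the fold upward and 4 downward, beside 25.5% and 19.1% of genes, and 12 of 28 mutant members upward and 0 downward, beside 14.6% and 12.6%. Highest at the level filter were Gnl3 (3.69, 1.33 to 6.38), Bop1 (1.79), Nle1 (1.73, -0.85 to 3.87) and Ppan (1.73, -0.85 to 3.87) in wild type and Phb (1.70), Gnl3 (1.70), Nop58 (1.33) and Las1l (1.35) in mutant. Lowest were Nop56 (-1.74, -7.10 to 0.86), Pa2g4 (-1.44, -3.75 to 0.18), Rcl1 (-1.50, -6.87 to 1.13) and Ncl (-0.71) in wild type and Pa2g4 (-0.59), Nop16 (-0.45, -2.85 to 1.30), Rrp9 (-0.38, -2.78 to 1.38) and Tfb2m (-0.22, -2.63 to 1.57) in mutant. Nle1 and Las1l act in the large subunit pathway, and Tfb2m is a mitochondrial transcription factor. DN over DP cells gave 0.96 (0.80 to 1.11) and 0.25 (0.16 to 0.35). Past the fold upward were 26 of 34 members in wild type, beside 20.7% of genes, with 1 downward, beside 35.4%, and 5 of 27 in mutant, beside 12.6%, with 0 downward, beside 25.7%. Gnl3 was highest in both, with 4.44 (2.52 to 6.92) and 1.15 (0.12 to 2.21), followed by Ndufaf4 (2.72), Prmt3 (2.30) and Nop58 (2.11) in wild type and Ddx18 (0.88), Dkc1 (0.86) and Ppan (0.75) in mutant. Lowest were Rcl1 (-0.89, -4.03 to 1.13), Tcof1 (-0.24), Mrto4 (0.11) and Nip7 (0.24) in wild type and Nop16 (-0.66), Ncl (-0.28), Tcof1 (-0.29) and Imp4 (-0.14) in mutant. These comparisons share the DP cells of their library.

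All further log2 ratios between the libraries are mutant over wild type. Over all cells the members were lower in the mutant library, at 3987 CPM against 4725, a summed ratio of -0.25 (-0.27 to -0.22). Of 33 members at the level filter only Tmem97 was past the fold downward and 0 upward, beside 2.67% and 6.22% of genes. Tmem97 was at 31.1 and 16.4 CPM (-0.93, -1.28 to -0.58). Npm1 was at 1507 and 1077 CPM (-0.48, -0.53 to -0.44), Gnl3 at 75.7 and 54.3 (-0.48, -0.68 to -0.28), Hspd1 at 180.1 and 136 (-0.41, -0.53 to -0.28), Pa2g4 at 273 and 223 (-0.29) and Ncl at 665 and 552 (-0.27). The snoRNP proteins Fbl, Nop56 and Nop58 had -0.04, -0.06 and -0.07, all with intervals that include 0. Highest at the level filter were Bop1 at 20.3 and 27.6 CPM (0.44, 0.11 to 0.78), Rrp9, a U3 snoRNP protein, with 0.30, Pes1 with 0.24 and Imp4 with 0.23. The median over members was -0.01, where that of all genes was 0.08. Without Npm1, Ncl, Hspe1 and Hspd1, left out after their values were seen, the summed ratio of the other 43 members was -0.08 (-0.11 to -0.04). This comparison took in all kept cells, also the 23 and 81 of other cell types. The makeup of the libraries moved with the sum over all members. Of 1338 and 1726 kept cells, S phase, where members are highest, held 175 and 108, G2/M 277 and 140 and DN 24 and 155. In sums over cells, fewer cells with a transcript and less of it per cell cannot be told apart.

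In cells called non-cycling DN by their marker UMIs, the members were lower in the mutant library as a group. The summed level was 5192 CPM in wild type (4732 to 5685, from 467 UMIs of 24 cells) and 3032 in mutant (2879.6 to 3191, from 1480 UMIs of 155 cells), a ratio of -0.78 (-0.93 to -0.62). Cell by cell, the median was 48.0 member UMIs per 10000 in wild type (quartiles 37.7 and 61.2) and 26.7 in mutant (quartiles 20.7 and 37.0), so the lower quartile of the wild type cells lay above the upper quartile of the mutant cells. Of 35 members, 24 were past the fold downward, beside 15.7% of all genes, and 1 upward, beside 26.8%. The median over members was -0.76, where that of all genes was 0.13. Of the other ribosome biogenesis genes, 14 of 56 were past the fold downward and 7 upward, with a median of -0.10 and a summed ratio of -0.13 (-0.28 to 0.03). Cytoplasmic ribosomal protein genes summed to 418792 and 326151 CPM, a ratio of -0.36.

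All 6 role groups were lower in mutant DN cells. The summed ratios were -0.73 (-0.96 to -0.50) for rRNA transcription and scaffold genes, -0.70 (-1.19 to -0.18) for snoRNP proteins, -0.98 (-1.53 to -0.39) for small subunit factors, -0.58 (-0.96 to -0.19) for large subunit factors, -0.88 (-1.24 to -0.51) for mitochondrial and chaperone genes and -1.47 (-2.25 to -0.66) for the other growth genes. Counts of single members were small: 42 of 47 had 11 UMIs or fewer in wild type, 10 had intervals below 0 and 0 above. Npm1 had 145 and 440 UMIs, 1612 and 901 CPM (-0.84, -1.11 to -0.56), and 1 of the 24 wild type cells held 23.4% of its wild type UMIs. Ncl had 46 and 160 UMIs, 511 and 328 CPM (-0.64, -1.12 to -0.14), and Hspe1 50 and 151 UMIs, 556 and 309 CPM (-0.85, -1.32 to -0.35). Fbl was at 211 and 96.3 CPM (-1.13, -1.93 to -0.28) and Pa2g4 at 222 and 119 (-0.90, -1.66 to -0.09).

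Among less abundant members, Gnl3 had 11 and 21 UMIs, 122 and 43.0 CPM (-1.51, -2.62 to -0.31). With 5 CPM added, the ratio of Gnl3 was -1.02 as a mean over cells and 3.77 when cells were thinned to 1500 UMIs in a single random draw, which left 0 of its wild type UMIs. Ndufaf4 had 10 and 16 UMIs (-1.76, -2.99 to -0.46), Aimp2 3 and 5 (-1.70, -4.06 to 0.98), Wdr43 11 and 25 (-1.26, -2.33 to -0.08) and the mitochondrial RNA helicase Supv3l1 4 and 4 (-2.44, -4.86 to -0.02). Among the highest ratios at the level filter were those of Ddx18, a DEAD-box helicase of the large subunit pathway, with 5 and 56 UMIs (1.05, -0.26 to 2.72), Ppan, a large subunit factor, with 2 and 17 (0.65), Dkc1 with 3 and 23 (0.50) and Tcof1 with 7 and 42 (0.14), and the intervals of these 4 include 0. Bop1, Tbrg4 and Cad, the enzyme that starts pyrimidine synthesis, had 0 UMIs in wild type DN cells and 7, 9 and 2 in mutant ones. Rrp12 had 0 in both.

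The DN classes differed in other measures too, whose part in the difference was not tested. Il2ra was at 578 and 1079.7 CPM, Ptcra at 233 and 557, Dtx1 at 88.9 and 311 and the nuclear RNA Malat1 at 23204 and 34427. Markers of later stages, on which the DN call set no upper limit, were higher in mutant as well. Cd8b1, a gene of the DP list, was at 55.6 and 260 CPM. Summed DP markers were at 2969 and 4366 CPM, SP markers at 1957 and 3792 and DN markers at 3447 and 5396. The medians of total UMIs were 3410 and 2793. Stricter limits on the marker UMIs left 12 wild type and 108 mutant cells and a summed ratio of -0.50 (-0.75 to -0.25). Cycling cells that carried DN markers at 10 per 10000 UMIs or more can be set beside this. In S phase they were 7 wild type cells at 6744 CPM (6052 to 7494) and 36 mutant cells at 6899.8 CPM (6548 to 7265), and in G2/M 5 cells at 5237 (4522 to 6032) and 24 at 4404 (4095 to 4731), and the intervals overlap in both phases. In S to G2 they were 5 cells at 6954 (6326 to 7628) and 18 at 5464 (5078 to 5871), lower in the mutant library without overlap. These 5 and 18 cells had medians of 13474 and 8301.5 UMIs, and the intervals do not cover differences between cells.

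**Figure D3:**
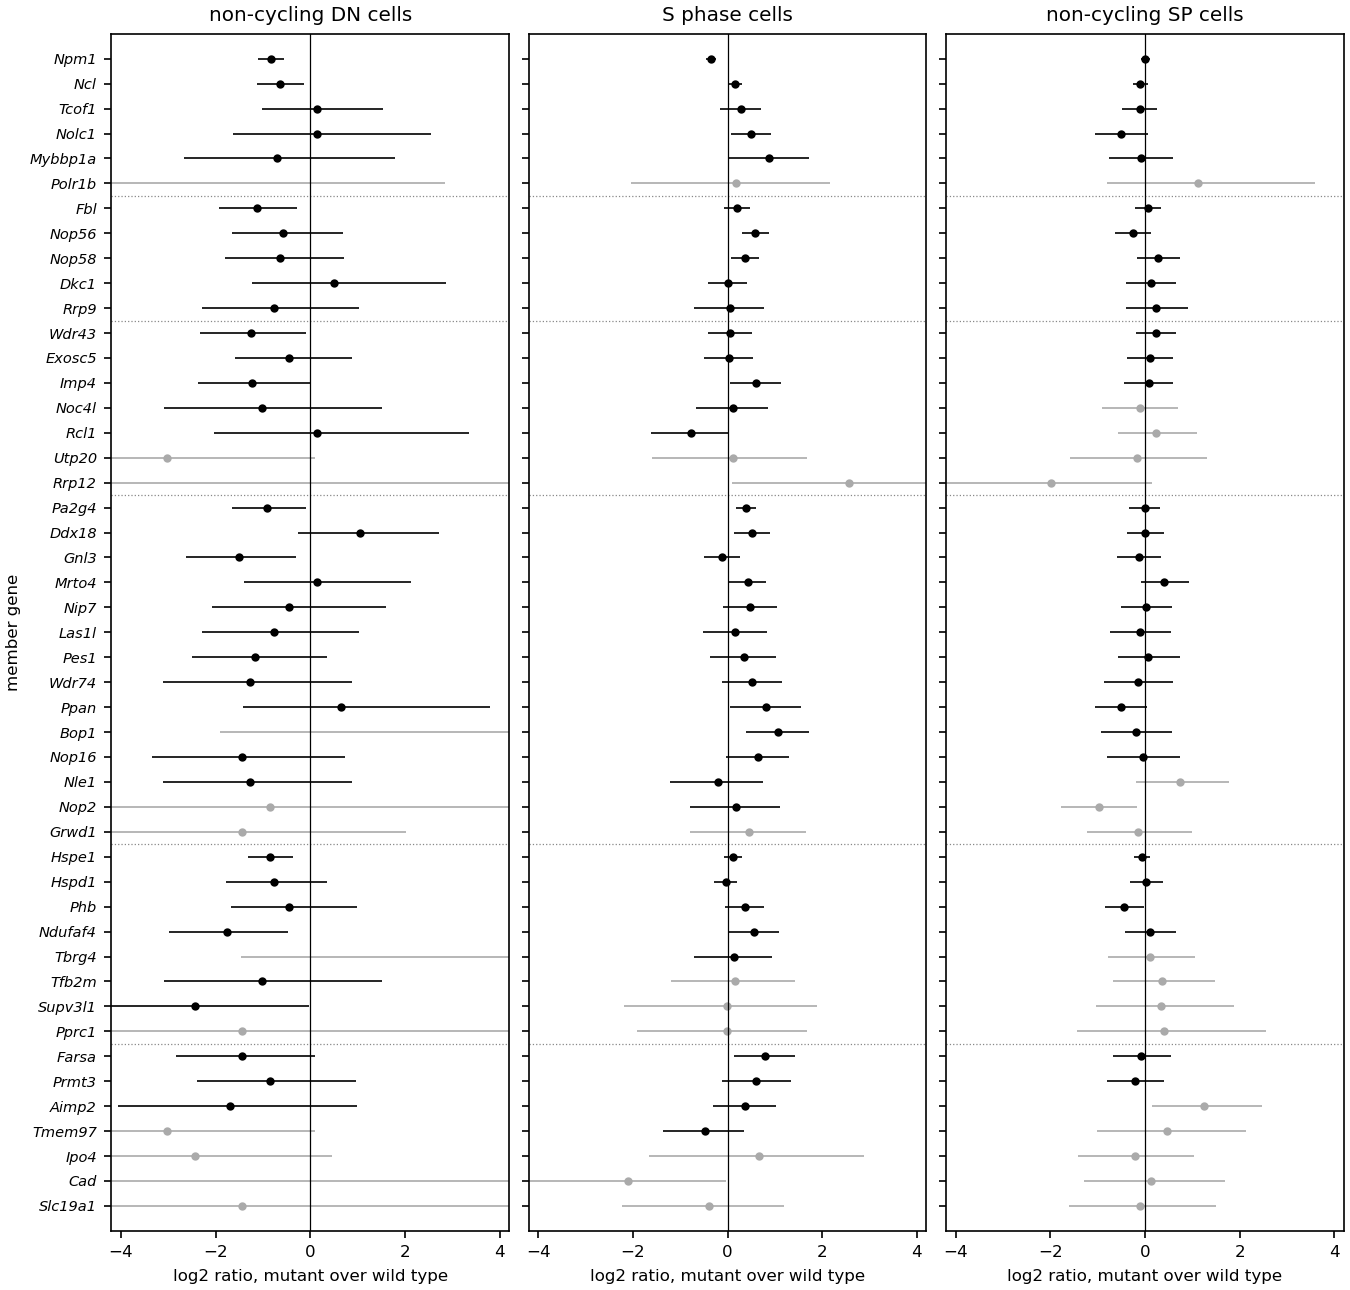
Log2 ratio of mutant over wild type for each member in non-cycling DN cells (left), S phase cells (middle) and non-cycling SP cells (right), with exact 95% intervals that end at the edge of the axis. Grey marks members under a mean of 20 CPM, lines separate the role groups, and a member with 0 UMIs on a side has no point. In DN cells 35 points lie below 0 and 7 above, with wide intervals, and in SP cells 0 of 30 at the level filter are past the fold.

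In S phase cells the libraries were close, at 6874 CPM (6731 to 7019.8) and 7234 (7028 to 7445), a summed ratio of 0.07 (0.02 to 0.12). The sign of this ratio depended on the scale: it was -0.12 under median-of-ratios scaling and -0.10 with totals taken without ribosomal protein and mitochondrial genes. Of 37 members, 4 were past the fold upward, beside 13.2% of genes, and 1 downward, beside 3.35%. Upward were Bop1 at 31.3 and 65.3 CPM (1.06, 0.40 to 1.72), Mybbp1a (0.88, 0.03 to 1.72), Ppan (0.81, 0.05 to 1.56) and Farsa (0.78, 0.13 to 1.43), and Rcl1 was downward at 47.8 and 28.0 CPM (-0.77, -1.62 to 0.01). Nop56 was higher in mutant, at 192 and 288 CPM (0.58, 0.30 to 0.87), as was Pa2g4, at 387 and 508 (0.39, 0.19 to 0.60). Npm1 was lower, at 2297 and 1802 CPM (-0.35, -0.45 to -0.25). Tmem97 had -0.48 and Nle1 -0.20, next to these the lowest at the level filter. Hspd1 had -0.04 and Hspe1 0.12, both with intervals that include 0. Cad had 17 and 2 UMIs (-2.10, -5.26 to -0.02), under the level filter. The median over members was 0.30, where that of all genes was 0.18. Higher in mutant were 37 of all 47 members, a direction opposite to that of Npm1 but shared by the median of all genes. Without Npm1, Ncl, Hspe1 and Hspd1 the summed ratio was 0.33 (0.25 to 0.41).

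In G2/M cells the sum of all members and the sum without 4 abundant ones pointed in opposite directions. The members summed to 4333 and 3883 CPM, a ratio of -0.16 (-0.21 to -0.10), but it was 0.026 with every cell weighted alike and 0.037 with cells thinned to 1500 UMIs. Without Npm1, Ncl, Hspe1 and Hspd1, left out after their values were seen, the summed ratio of the other 43 members was 0.10 (0.02 to 0.18). Of these 4 abundant genes Npm1 had the largest fall in CPM, from 1376 to 883, and Ncl was at 640 and 661 CPM. The median over members was 0.09, where that of all genes was 0.15. Of 31 members, 3 were past the fold upward and 2 downward, beside 9.17% and 2.42% of genes. Downward were Npm1 at 1376 and 883 CPM (-0.64, -0.75 to -0.53) and Gnl3 at 52.4 and 32.1 (-0.71, -1.32 to -0.13). Phb, the mitochondrial scaffold prohibitin, had -0.48, Exosc5 -0.47 and Hspe1 -0.40 (-0.61 to -0.19). Upward were Bop1 at 17.0 and 33.1 CPM (0.96, 0.23 to 1.69), Noc4l (0.69, 0.03 to 1.34) and Imp4 (0.68, 0.20 to 1.16), followed by Pes1 with 0.65, and Ncl had 0.05. Bop1 was thus higher and Npm1 lower in the mutant library in both S phase and G2/M cells. Myc was at 61.1 and 21.8 CPM in S phase cells (log2 ratio -1.49, -2.43 to -0.66) and at 42.9 and 14.6 CPM in G2/M cells (-1.56, -2.45 to -0.76). Over all cells the ratio of Myc was -0.96 (-1.25 to -0.67), and these intervals from all UMIs lie below 0. With cells thinned to 1500 UMIs in a single random draw, Myc was at 57.1 and 31.2 CPM (log2 ratio -0.88, -2.69 to 0.66) in S phase, from 15 and 5 UMIs, at 26.5 and 19.3 CPM (log2 ratio -0.45, -2.56 to 1.30) in G2/M, from 11 and 4 UMIs, and at 32.9 and 22.9 CPM (log2 ratio -0.52, -1.06 to 0.01) over all cells, so these intervals include 0. In DN cells it was at 139 and 13.5 CPM, from 5 and 3 UMIs, with an interval below 0.

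In resting DP cells the summed levels were 2675 and 2541 CPM, a ratio of -0.07 (-0.17 to 0.03). Without Npm1, Ncl, Hspe1 and Hspd1 the ratio of the other 43 was 0.24 (0.08 to 0.39), of opposite sign, and the median over members was 0.13, where that of all genes was 0.11. Of 23 members, 3 were past the fold upward (Nop58, Nolc1 and Exosc5, with 0.96, 0.94 and 0.77) and 1 downward (Rcl1, with -0.91), beside 12.1% and 5.66% of genes, and the intervals of these 4 include 0. Next upward was Ddx18 with 0.53, and Mrto4 and Hspd1 had -0.35 and -0.28. Npm1 was at 931 and 688 CPM (-0.44, -0.62 to -0.26). In SP cells the levels were 3457 and 3405 CPM, a ratio of -0.02 (-0.08 to 0.03), or -0.02 (-0.10 to 0.07) without those 4 genes, and 0 of 30 members were past the fold in either direction, beside 2.07% of genes upward and 1.79% downward. Npm1 was at 1038 and 1046 CPM there (0.01, -0.09 to 0.11), so its ratio lay below 0 in DN, DP, S phase and G2/M cells and near 0 in SP cells. The extremes in SP cells at the level filter were Mrto4, a large subunit factor, with 0.41, and Nolc1 and Ppan, with -0.51 each, all with intervals that include 0, and Phb with -0.43 (-0.84 to -0.03). Next to them stood Nop58 (0.29), Wdr43 (0.23) and Rrp9 (0.24) upward and Nop56 with -0.26 downward.

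In post-selection cells, few in either library, the levels were 2462 and 3189 CPM, a ratio of 0.37 (0.12 to 0.63). There 15 of 27 members were past the fold upward and 3 downward, beside 24.9% and 22.5% of genes. Nop56 had 1 and 19 UMIs (3.04, 0.39 to 8.42) and Nop58 1 and 16 (2.79, 0.10 to 8.18), and Exosc5 and Phb, also among the highest at the level filter, had 0 and 10 and 3 and 20 UMIs. Downward were Bop1 with 4 and 2, Tcof1 with 13 and 15 and Nle1 with 3 and 3 UMIs, and Nip7 had 3 and 5. Ribosomal protein genes, whose part was not tested, had summed ratios of -0.36 in DN, -0.33 in DP, -0.29 in post-selection, -0.37 in S phase, -0.42 in G2/M and -0.04 in SP cells.

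Cells with a Myc UMI were compared with cells of the same library and class without one. A UMI of Myc is found more easily in a deep cell, so each cell with Myc was matched to the 3 nearest unused cells in total UMIs. Each cell without Myc was used once. Wild type DN cells ran short, with 15 without Myc for 9 with it. In the mutant library depth was alike, with medians of 4498 UMIs in 88 cells with Myc and 4417 in 264 without. In wild type it was not, with 7993 in 155 cells and 5603 in 453. The summed log2 ratio of cells with over cells without Myc was 0.68 (0.64 to 0.72) for wild type and 0.33 (0.27 to 0.39) for the mutant library. The sides also differed in stage and phase markers, whose part in the ratios was not tested. In wild type, cells with and without Myc had G2/M markers at 6297 and 8664 CPM, S phase markers at 4663 and 5809, DP markers at 2612 and 4137, SP markers at 1712 and 2566 and DN markers at 447 and 279. In mutant the G2/M markers were at 4052 and 5403 CPM, DP markers at 1816 and 2171, SP markers at 8180.0 and 8101 and DN markers at 866 and 873. Past the fold upward were 13 of 35 wild type members, beside 2.75% of genes, and downward 0, beside 8.67%. In mutant 9 of 36 were past it upward, beside 3.64%, and 0 downward, beside 4.82%. Of all 47 members 38 were higher with Myc in both libraries, and the median log2 ratio of all genes at the level filter was -0.12 and -0.01. Highest at the level filter were Gnl3 (1.28), Hspd1 (0.92), Mybbp1a (1.14) and Dkc1 (0.88) in wild type and Ppan (1.28), Rrp9 (1.19), Noc4l (1.08) and Gnl3 (0.91) in mutant. Lowest were Las1l (-0.08), Aimp2 (0.12), Farsa (0.15) and Noc4l (0.21) in wild type and Pes1 (-0.60), Imp4 (-0.26), Rcl1 (-0.05) and Tcof1 (0.01) in mutant.

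Pairs whose totals lay within 10% of each other, a match added after the depths were seen, gave smaller ratios, 0.26 (0.21 to 0.31) from 133 wild type pairs and 0.26 (0.19 to 0.34) from 87 mutant pairs. In these pairs G2/M markers were at 5761 CPM with and 7345 without Myc in wild type, and at 3836 and 5120.1 in mutant. In wild type pairs 4 of 34 members were past the fold upward, beside 2.04% of genes, and 0 downward, beside 5.17%. In mutant pairs 5 of 36 were past it upward, beside 6.35%, and 1 downward (Pes1), beside 6.84%. With all cells thinned to 1500 UMIs before Myc was scored, the wild type ratio was 0.12 (-0.04 to 0.28), from 58 cells with Myc.

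Gnl3 was the one member past the fold in both libraries under both matches. In wild type pairs it had 159 and 80 UMIs in cells with and without Myc, 149 and 76.2 CPM (0.96, 0.57 to 1.37), and in mutant pairs 56 and 31, 109.8 and 61.2 CPM (0.84, 0.18 to 1.52). Hspd1 had 298 and 227 UMIs in wild type pairs (0.37, 0.11 to 0.62) and 132 and 77 in mutant pairs (0.77, 0.35 to 1.19). Rrp9 had 0.61 in wild type and 1.14 (0.18 to 2.16) in mutant pairs, and Ppan 0.14 and 0.94. Rcl1 had 0.87 (0.07 to 1.71) and -0.14, and Wdr43 0.64 (0.15 to 1.14) and 0.31. Npm1 had 0.29 and 0.17 and Ncl 0.22 in both. Lowest in wild type pairs were Aimp2 with -0.50 and Las1l, a factor of internal spacer cleavage, with -0.49. In mutant pairs the lowest were Pes1 with -0.79 and Prmt3, an arginine methyltransferase, with -0.44. The intervals of all these lowest members include 0.

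By class the paired ratio was highest in G2/M cells among the classes with more than 5 pairs, at 0.48 (0.39 to 0.58) from 35 wild type pairs and 0.66 (0.46 to 0.86) from 8 mutant pairs. In S phase it was 0.21 (0.13 to 0.29) from 37 pairs and 0.16 (0.02 to 0.29) from 10, in S to G2 0.06 (-0.05 to 0.18) from 19 and 0.25 (0.06 to 0.43) from 7, in SP cells 0.15 (-0.07 to 0.38) from 29 and 0.19 (0.04 to 0.34) from 49, and in DN cells -0.08 (-0.47 to 0.31) from 7 and -0.18 (-0.54 to 0.18) from 8. In wild type DP cells the paired ratio was 0.58 (-0.11 to 1.30) from 5 pairs. The paired G2/M cells were not alike in phase. Markers of G2 and mitosis were at 10655 CPM in wild type cells with Myc and 13993 in those without, and at 12560.4 and 17421 in mutant cells, and the part of this in the ratio was not tested.

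**Figure D4:**
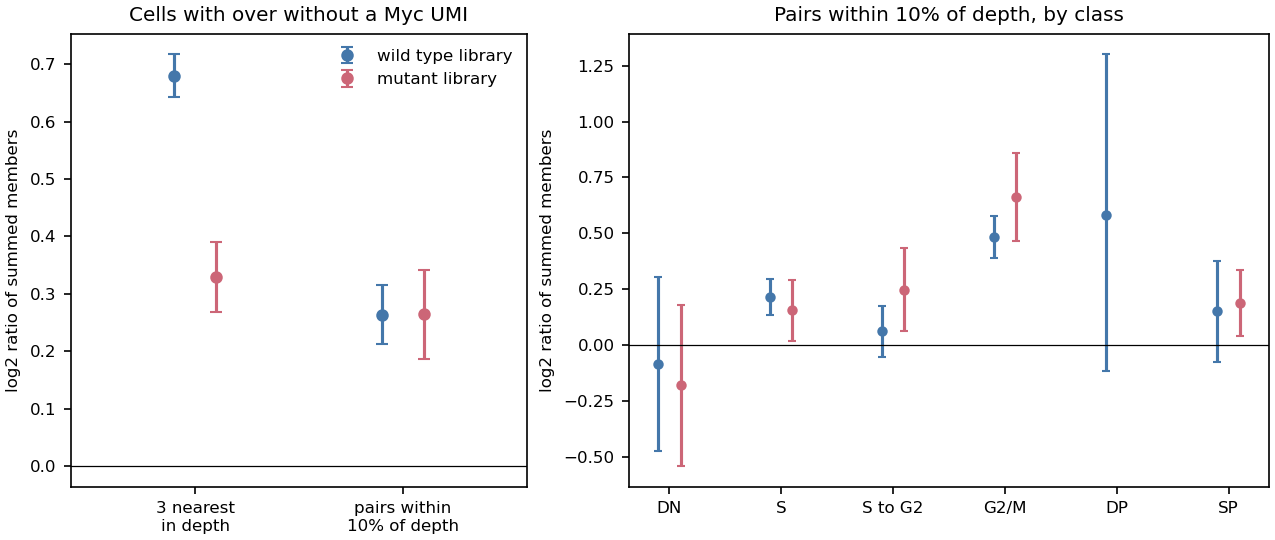
Log2 ratio of the summed 47 members in cells with a Myc UMI over cells without one, with exact 95% intervals that cover counting error only, for both matches (left) and by class for pairs within 10% of depth (right). The libraries differ with 3 matches, at 0.68 and 0.33, and both stand at 0.26 in the pairs.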

How the data were processed

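For every barcode and gene symbol the authors deposited UMI counts, not normalized, made with Cell Ranger on mm10 (version not given in the sources used here), per the submitters' processing notes. How reads shared with pseudogene copies were counted is not given in the sources used here. Cells with at least 400 genes and at most 10% mitochondrial UMIs were kept, without the 8 doublets that Scrublet (scanpy 1.11.5, expected rate 4%) called, 3064 of 3083 barcodes. It marked few cells, so uncalled doublets remain, and an alternative left out the highest 5% of scores. UMIs were summed per library and class (Python 3.11.15, numpy 2.4.6, pandas 2.3.3) and given as CPM with exact Poisson 95% intervals. Ratios of sums have exact conditional intervals (scipy 1.17.1). Classes used summed marker UMIs per 10000: cycling at 50 or more, non-cycling under 30, DN at 20, SP at 75, post-selection at 20, DP at 30 and other cell types at 30, with S phase under 40% and G2/M at 60% or more of cycling UMIs from G2/M markers. The calculations were tested on simulated data. Members and gene lists were chosen with earlier results of these data known. Named genes are, in each comparison, the 4 highest and 4 lowest members by log2 ratio (5 CPM added) at the level filter, the 8 most abundant members and at least 1 member of each role group. Alternatives changed the cell filter, depth, scaling, weighting, doublets, class limits, level filter, added CPM, fold and matching. Library totals were 6638880 and 6364506 UMIs, and members with few UMIs have wide intervals.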

Additional observations from a re-analysis of the deposited data

Results flagged for a closer look

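The summed members pointed in opposite directions between the libraries in different classes of cells, and these differences between classes were not tested, since each class held 1 library per genotype. The log2 ratio of mutant over wild type was 0.07 in S phase and -0.16 in G2/M cells, a difference of 0.2318. Against non-cycling DN cells, with -0.78, the S phase ratio differed by 0.8496. Post-selection cells, with 0.37 from 169 and 506 member UMIs, differed by 0.5316 from G2/M and by 1.1493 from DN cells. The signs in S phase and G2/M cells depended on scaling or weighting.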

How the results depend on the processing

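With 1 library per genotype, no library could be left out. No paired analysis was possible because each group has 1 sample. Of 103 alternatives for summed ratios, 60 stayed within the reported interval, 39 left it and 4 changed sign. Of 1371 alternatives for single members past the fold, 1228 stayed past it, 129 did not and 14 changed sign. Few UMIs per member limit the DN and post-selection values, and 97 mutant cells were too shallow for thinning. The cause of each shift was not tested. The summed log2 ratios that left the reported interval follow by comparison. For mutant over wild type over all cells they were -0.15 with cells thinned to 1500 UMIs, -0.16 as a mean over cells, -0.33 under median-of-ratios scaling, -0.30 with totals without ribosomal protein and mitochondrial genes (reduced totals) and -0.20 with the same lower limit of 1781 UMIs. In S phase they were -0.12 under median-of-ratios scaling and -0.10 with reduced totals, both a change of sign, and 0.21 with stricter class limits. In G2/M they were 0.037 thinned and 0.026 as a mean over cells, both a change of sign, -0.32 under median-of-ratios scaling, -0.29 with reduced totals and -0.038 with stricter limits. In DN cells they were -1.01 with reduced totals and -0.50 with stricter limits, and with DN markers at 10 per 10000, an alternative added after seeing the data, the ratio was -0.74. In DP cells they were -0.19 and -0.19 under these scalings. S phase over DP cells gave, in wild type, 1.26 thinned, 1.19 as a mean over cells, 1.69 under median-of-ratios scaling and 1.46 with reduced totals, and in mutant 1.32, 1.37, 1.73 and, with stricter limits, 1.61. G2/M over S phase gave, in wild type, -0.85 thinned, -0.84 as a mean over cells, -0.78 under median-of-ratios scaling, -0.83 with reduced totals, -0.74 with stricter limits and -0.72 without the highest doublet scores, and in mutant -0.99, -1.03 and -0.99 under both scalings and stricter limits. Cells with over cells without Myc gave, in wild type, 0.47 with 1 match, 0.12 thinned, 0.56 as a mean over cells, 0.82 under median-of-ratios scaling, 0.81 with reduced totals, 0.64 with stricter limits and 0.26 in pairs, and in mutant 0.23 as a mean over cells and 0.26 in pairs.

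Counts of members past the fold moved by over 1.5 times mostly with the fold or the level filter. With a lower fold they were 5 over all cells, 21 in S phase, 14 in G2/M, 11 in DP, 4 in SP, 26 for G2/M over S phase in wild type and 28 and 20 for Myc in wild type and mutant. At 2-fold they were 0, 0, 0, 12 and 0 over all, S phase, G2/M, DN and DP cells, 3 and 14 for G2/M over S phase and 1 and 2 for Myc. With a level filter of 50 CPM they were 0, 0, 2, 14 and 0 over all, S phase, G2/M, DN and DP cells, 16 and 18 for S phase over DP and 4 for Myc in mutant. With no level filter they were 2, 12 and 3 over all, DP and SP cells, and with 1 CPM added 8 in S phase. Counts of the other ribosome biogenesis genes with the lower fold were 33 in DN cells and 24 and 21 for Myc. Single members changed sign, on the scale with 5 CPM added, when thinned, a single random draw: Gnl3 (3.77), Rrp9 (2.68) and Wdr74 (1.49) in DN cells, with 0, 0 and 0 wild type UMIs left, Rcl1 in S phase (0.32), Imp4 for S phase over DP in mutant (-0.029), Wdr74 for G2/M over S phase in mutant (0.42), Hspd1 (-0.71), Mrto4 (-0.38) and Wdr43 (-0.17) for Myc in wild type and Noc4l for Myc in mutant (-1.01). In DN cells stricter limits changed the sign of Rrp9 (0.15), Noc4l (2.01) and Las1l (0.27), and a mean over cells that of Mybbp1a (0.040).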
